A study of Mus musculus with 6 samples.

Results

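Acetylated histone H3 (H3ac), a chromatin mark of active promoters and enhancers, was measured around 10 genes through which stromal cells of bone support blood-forming cells and osteoclasts. The genes were Cxcl12, Kitl, Angpt1, Vcam1, Il7, Csf1, Tnfsf11, Tnfrsf11b, Foxc1 and Ebf3. An H3ac region was counted as a member when it overlapped the gene body, extended by 5 kb on both sides, on the mouse mm10 genome with GENCODE vM21 annotation. This rule took 18 of the 24431 regions in the table, and none of the 10 genes was without a region. The overlap itself was decided by position alone.

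The measurements came from CUT&RUN, which uses an antibody against H3ac to bring a DNA-cleaving enzyme to acetylated nucleosomes, so that the fragments set free can be sequenced. About 100K cultured mouse mesenchymal stem cells (MSCs) went into each of 6 libraries, in 3 groups of 2. The mice behind the Young group were 3 to 5 months old, those behind the Old group were 18 to 22 months old, and neither group was treated. OldAcetate MSCs, also from mice of 18 to 22 months, received 5 mM sodium acetate for 3 days, and every group was grown only at 2% oxygen with 10% FBS and 1% penicillin/streptomycin. The design thus asks whether H3ac at these genes differs with age and whether acetate alters it in old cells. The labels name neither strain, sex nor the number of animals behind a culture, and nothing states that the libraries of a group came from separate animals or cultures, so p-values measure only the spread between these samples, which may be technical.

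In bone marrow, stromal cells around blood vessels secrete CXCL12 and stem cell factor, the product of Kitl, which retain and maintain hematopoietic stem and progenitor cells, while IL-7 sustains early B cells. The same lineage controls osteoclasts through M-CSF, the product of Csf1, and RANKL, the product of Tnfsf11, both required for osteoclast formation, and through osteoprotegerin, the product of Tnfrsf11b, a soluble decoy receptor that captures RANKL. Foxc1 and Ebf3 encode transcription factors needed for the cells that supply this niche.

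Library totals, recovered from the step between values, ran from 2163351 to 3039481 reads, and the median region held 31 to 56 reads. Between 57.8% and 64.8% of Young reads, 45.9% and 49.9% of Old reads, and 56.3% and 57.3% of OldAcetate reads fell in regions. Before scaling, the median log2 change over all regions was -0.35 for Old against Young, 0.24 for OldAcetate against Old and -0.11 for OldAcetate against Young. Changes below are given after scaling, relative to that shift. All 10 stromal marker genes checked had a region over the start site, with summed levels of 834.5 to 946.5 RPM, the read count normalised to library size, in Young, 685.3 to 707.2 in Old and 864.6 to 881.3 in OldAcetate. Of 8 matched hematopoietic markers, 2 had one (Spi1 and Runx3, and not Ptprc, Itgam or Adgre1), with sums of 31.4 to 31.6, 23.6 to 25.9 and 27.5 to 29.6 RPM. Of 8 endothelial markers, 1 had one (Erg, and not Pecam1, Cdh5 or Kdr), at 16.3 to 17.4, 9.55 to 11.1 and 12.4 to 15.9 RPM. The part of other cell types in the values below was not tested, and fewer marked cells cannot be told apart from less mark per cell.

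Each of the 10 genes had a region over its start site. For Vcam1, Il7, Csf1, Tnfsf11 and Foxc1 it was the only region, Cxcl12 and Tnfrsf11b had 2 regions, and Kitl, Angpt1 and Ebf3 had 3. The widest was the Csf1 region (chr3:107726501-107779000), whose 52500 bp covered the whole gene body and ran 18531 bp upstream of the start and past the gene end. The single-exon gene Foxc1 also lay wholly within its region (chr13:31793001-31823500), while the Vcam1 region (chr3:116112001-116130500) covered 89.6% of the gene and exons 1 to 8 of 9, and the Tnfsf11 region (chr14:78287001-78310000) 68.8% of the gene. At the other end, the start region of Angpt1 (chr15:42668501-42679000), a gene of 252255 bp, covered 3.36% of the body, and that of Kitl (chr10:100014501-100021000) also held a small part, each with exon 1 only, as did that of Il7 (chr3:7609001-7615500), with 10.9% of the body.

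**Figure D1:**
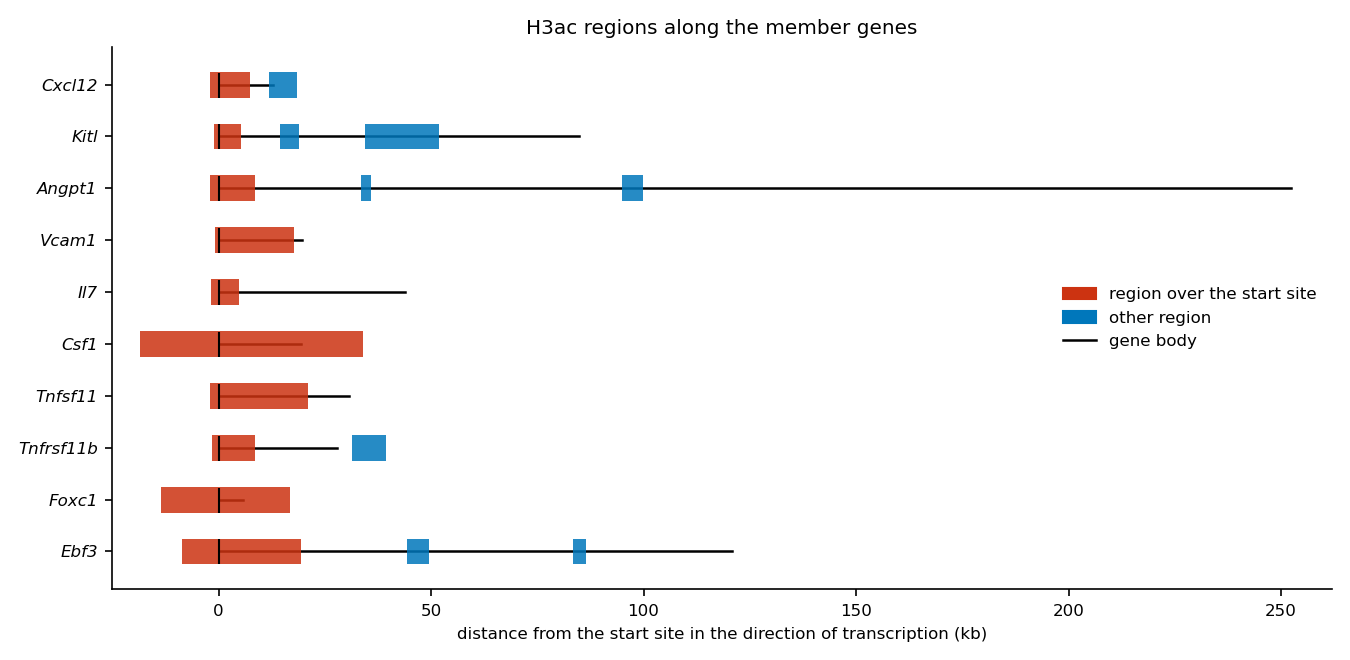
Member H3ac regions along the 10 genes, plotted as distance from the start site in the direction of transcription (kb). Black lines are gene bodies, red bars regions over the start site and blue bars the other 8 regions. Csf1 and Foxc1 lie wholly inside 1 region, and the Tnfrsf11b region farther from the start begins beyond the gene end.

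The 8 regions away from a start lay mostly inside genes. Cxcl12 had one over its last exon and the sequence downstream (chr6:117180501-117187000), apart from the start region over exons 1 to 3 of 4 (chr6:117166501-117176000). Kitl held a region in intron 1 (chr10:100030001-100034500) and a longer one over exons 2 and 3 (chr10:100050001-100067500). Both further regions of Angpt1 (chr15:42641001-42643500 and chr15:42577001-42582000) were in its long intron 1, 33477 and 94977 bp from the start. Those of Ebf3 were in intron 6 of the main transcript, touching an exon of another transcript (chr7:137265001-137270000), and in intron 8 (chr7:137228001-137231000), 44445 and 83445 bp from the start site, apart from the start region over exons 1 to 6 of 16 (chr7:137295001-137323000). The second Tnfrsf11b region (chr15:54239001-54247000) lay beyond the 3′ end of the gene at 3619 bp from the body, apart from the start region (chr15:54270001-54280000), and was the only member taken through the 5 kb extension. Its mean was 19.6 RPM, or 2.45 RPM per kb of length. The nearest region outside any window, 15548 bp from Csf1, was longer (chr3:107679001-107725500) and had 122.8 RPM, or 2.64 RPM per kb.

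Several member regions also covered other annotated genes, and CUT&RUN fragments carry no strand, so their signal cannot be divided between them. The antisense genes Gm17473, Gm43109 and Gm16685 shared the start regions of Angpt1, Vcam1 and Il7. The Foxc1 region also overlapped the antisense gene Gm11379 and part of the protein-coding gene Gmds, which encodes an enzyme of GDP-fucose synthesis.

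Promoter sequences are shown for 5 genes. Cxcl12 had the second highest density of the start regions, Tnfsf11 the lowest density and the lowest promoter CpG content, Csf1 the widest region, and Ebf3 and Foxc1 the highest promoter CpG content of the genes with an entry. They are the RefSeq promoter entries for GRCm38.p6, the assembly of mm10, limited to the bases before the start site, read 5′ to 3′ on the strand of the gene, with capitals for the motif matches described below. They lie at chr6:117168285-117168534 (Cxcl12, + strand), chr3:107760470-107760719 (Csf1, − strand), chr14:78308044-78308293 (Tnfsf11, − strand), chr13:31806396-31806632 (Foxc1, + strand) and chr7:137314446-137314695 (Ebf3, − strand).
Cxcl12: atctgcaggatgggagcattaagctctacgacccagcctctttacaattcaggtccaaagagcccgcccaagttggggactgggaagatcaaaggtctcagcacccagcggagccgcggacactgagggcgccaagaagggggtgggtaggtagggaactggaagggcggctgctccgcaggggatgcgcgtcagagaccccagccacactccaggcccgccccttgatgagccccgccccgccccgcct
Csf1: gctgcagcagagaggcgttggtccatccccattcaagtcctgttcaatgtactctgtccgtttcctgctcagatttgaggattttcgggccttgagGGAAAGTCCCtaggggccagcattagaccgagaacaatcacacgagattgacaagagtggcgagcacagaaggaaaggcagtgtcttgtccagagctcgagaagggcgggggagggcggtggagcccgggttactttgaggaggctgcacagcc
Tnfsf11: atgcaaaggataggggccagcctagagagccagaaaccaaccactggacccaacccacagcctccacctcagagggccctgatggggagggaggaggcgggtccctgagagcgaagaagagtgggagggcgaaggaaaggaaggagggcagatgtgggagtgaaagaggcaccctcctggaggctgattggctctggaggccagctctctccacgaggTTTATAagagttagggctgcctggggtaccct
Foxc1: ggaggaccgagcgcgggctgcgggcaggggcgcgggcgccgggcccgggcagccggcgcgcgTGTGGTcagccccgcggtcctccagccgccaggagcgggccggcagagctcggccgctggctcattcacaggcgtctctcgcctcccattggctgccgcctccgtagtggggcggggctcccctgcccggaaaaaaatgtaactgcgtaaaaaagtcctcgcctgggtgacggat
Ebf3: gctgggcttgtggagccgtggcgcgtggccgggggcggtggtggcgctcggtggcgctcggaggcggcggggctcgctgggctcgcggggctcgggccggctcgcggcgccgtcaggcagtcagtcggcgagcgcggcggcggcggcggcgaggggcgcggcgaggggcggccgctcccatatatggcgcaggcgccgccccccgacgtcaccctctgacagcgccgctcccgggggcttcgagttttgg

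The search used the RefSeq windows of 300 bases, 250 before and 50 after the start, on both strands. Of the 10 genes, 6 had an entry, the sixth being Kitl, and Angpt1, Vcam1, Il7 and Tnfrsf11b had none. The NF-kB letters, GGG and TTTCC with 2 bases between, matched the Csf1 window on the opposite strand and 1.63% of all 32851 windows. TATAAA matched Tnfsf11, on the opposite strand, and Kitl, and was held by 13.6% of windows. The RUNX letters TGTGGT matched Foxc1 and 16.8% of windows. Neither the EBF letters, TCCC and GGGA with 2 bases between, held by 0.904% of windows, nor the FOX letters TGTTTAC, held by 3.65%, were found in the 6 member windows. None of these motifs overlapped another, and a match or its absence describes these letters in these windows and not the binding of a factor.

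CpG content differed widely among the promoters. The ratio of observed to expected CpG was 1.075 in the Ebf3 window, above 97.3% of windows, and 0.943 in the Foxc1 window, above 90.6%. Kitl had 0.795, Csf1 0.644 and Cxcl12 0.639, all above the median of 0.384. Tnfsf11 alone was below it, at 0.25. Over the whole H3ac regions, which are much longer, the ratio was 0.600 for Ebf3, 0.489 for Kitl, 0.457 for Foxc1 and 0.411 for Cxcl12, beside a median of 0.413 over the 9750 regions that covered a protein-coding start. Il7 had 0.315, Tnfsf11 0.303, Angpt1 0.232, Vcam1 0.227 and Tnfrsf11b 0.209, all below that median. Csf1 had the lowest ratio of the start regions, 0.158, in the widest of them. The median over the member start regions was 0.309.

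Levels between genes were compared per length, as RPM per kb averaged over the 6 libraries. Tnfrsf11b had the highest density of the start regions (3.75 ± 0.62 RPM per kb, SD over 6 libraries) and Cxcl12 was close below it (3.70 ± 0.45), above 90.0% and 89.1% of all regions. Il7 (3.37 ± 0.56), Kitl (3.34 ± 0.81), Angpt1 (3.14 ± 0.40), Ebf3 (3.09 ± 0.36), Csf1 (3.00 ± 0.37), Foxc1 (2.92 ± 0.34) and Vcam1 (2.87 ± 0.21) followed. Tnfsf11 was lowest at 2.33 ± 0.32, above 25.3% of regions, so the genes of the decoy receptor and of its ligand stood at the opposite ends of the order. Most neighbours in the order could not be separated, because the order held in all 6 libraries only between Cxcl12 and Il7 and between Vcam1 and Tnfsf11. The median over all regions was 2.70 RPM per kb, and that over the regions at protein-coding starts was 3.07.

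**Figure D2:**
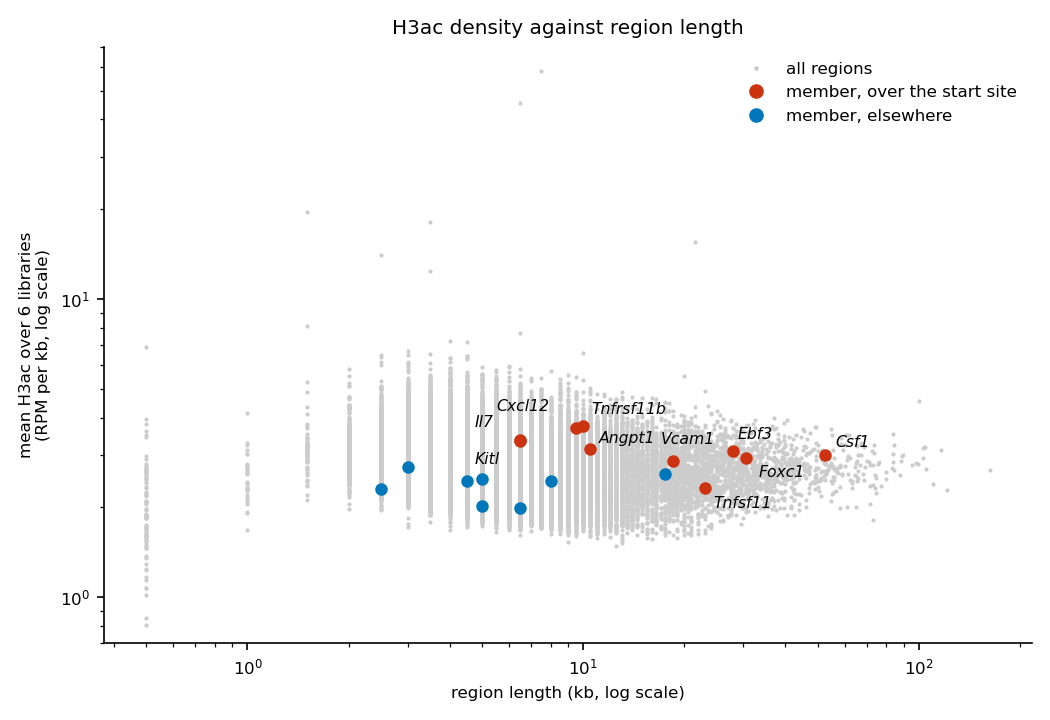
Mean H3ac density over 6 libraries (RPM per kb, log scale) against region length (kb, log scale) for all 24431 regions in grey, with member regions over a start site in red and the other members in blue. The member start regions lie between 2.33 and 3.75 RPM per kb at lengths from 6500 to 52500 bp, and Il7 and Kitl nearly coincide.

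Summed without dividing by length, the wide regions led. Csf1 averaged 157.3 RPM, above 99.6% of regions, and Foxc1 and Ebf3 exceeded 97.8% and 97.7% of regions. Within genes, the start region had the highest mean density in all 5 genes with more than 1 region, by 1.13 to 1.85 times, and it was above the other region in every library for 4 of 8 pairs. Cxcl12 showed the widest gap, 3.70 against 2.00 RPM per kb for the region over its last exon. Ebf3 showed the narrowest, 3.09 against 2.74 for the intron 8 region, where the start was higher in 4 of 6 libraries and reads ran from 9 to 35.

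No member region passed the test in any of the 3 comparisons. In limma, on log2(RPM + 0.5) after scaling and with Benjamini-Hochberg adjustment over all 24431 regions, 0 of 18 were called for Old against Young, beside 0.00819% of all regions. For OldAcetate against Old and for OldAcetate against Young 0 of 18 were called, beside 0% of all regions in each. edgeR on the recovered reads called 0 of 18 in each comparison too. At an unadjusted p under 0.05 there were 2 member regions for Old against Young (5.54% of all regions), 1 for OldAcetate against Old (6.24%) and 1 for OldAcetate against Young (5.08%). These were the start region of Angpt1 in the first and the second comparison, and Foxc1 in the first and the third. Their limma p-values draw on the spread of all regions. With plain eBayes, without the trend and robust settings, the unadjusted p of Foxc1 was 0.104 in the first comparison, beside 0.00434. In the third it was 0.057, beside 0.000674. For Angpt1 it was 0.0155 in the first, beside 0.00195, and 0.0241 in the second, beside 0.00466. The comparisons share groups, so these are not separate observations. With 2 libraries in a group, an exact two-sided permutation test of a single value cannot give a p below 0.333.

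The median scaled log2 change of the 18 regions was 0.08 for Old against Young, -0.01 for OldAcetate against Old and 0.05 for OldAcetate against Young, where scaling sets the medians over all regions close to 0. The 95% intervals of the 10 start regions had half-widths from 0.17 for Csf1 to 0.44 for Kitl in each comparison, and those of the other 8 from 0.28 to 0.80. Without scaling, the member medians were -0.27, 0.23 and -0.07, which follow the shift of all regions, and still no member was called, beside 9.52%, 0.311% and 0% of all regions.

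**Figure D3:**
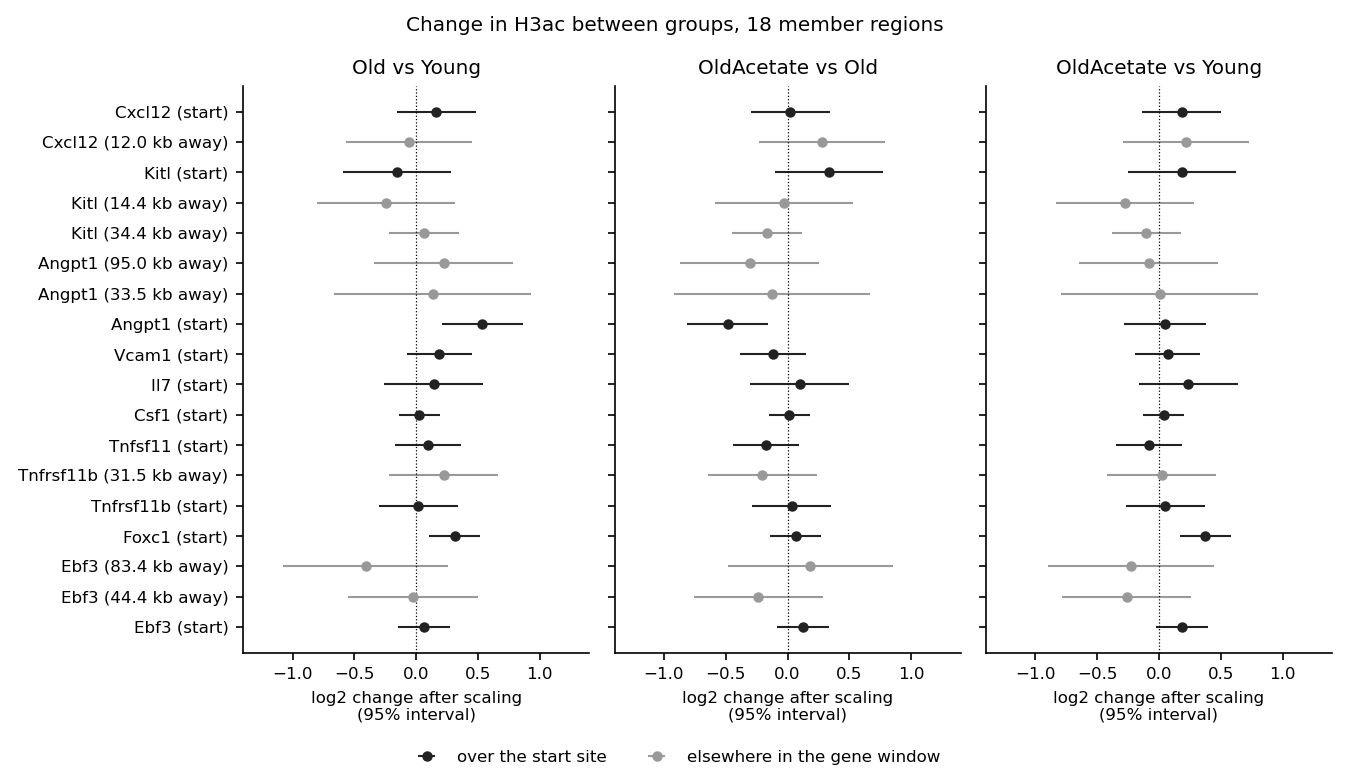
Scaled log2 change in H3ac with its 95% interval from limma, for the 18 member regions in the 3 comparisons. Black points are regions over the start site and grey points other regions, named by their distance from the start. All intervals include 0 except those of the Angpt1 start region for Old vs Young and OldAcetate vs Old and of Foxc1 for Old vs Young and OldAcetate vs Young, and none of these passed adjustment.

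Among the secreted niche factors, Cxcl12 encodes the chemokine that holds stem cells in the marrow. Its start region had 39.5 and 32.7 RPM in Young, 32.8 and 30.2 RPM in Old, and 41.3 and 34.6 RPM in OldAcetate. Both OldAcetate libraries lay above both Old libraries, as in 47.1% of all regions, while Young and Old overlapped. The scaled log2 change was 0.16 (SE 0.16, 95% interval -0.16 to 0.48, adjusted p = 0.947) for Old against Young, where it was -0.19 without scaling, and 0.02 (SE 0.16, adjusted p = 0.994) for OldAcetate against Old.

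Kitl encodes the membrane-bound and soluble ligand of the receptor KIT. Its start region had 24.0 and 22.5 RPM in Young, 23.6 and 11.1 RPM in Old, and 23.5 and 25.4 RPM in OldAcetate. A single library, Old replicate 2, stood apart from the other five, with 28 reads against 51 to 73, and the 95% Poisson interval of its value, 7.40 to 16.1 RPM, which covers counting error only, did not reach those of the others. The scaled change was -0.15 (SE 0.22, interval -0.59 to 0.28, adjusted p = 0.964) for Old against Young. For OldAcetate against Old it was 0.34 (SE 0.22, interval -0.10 to 0.77, adjusted p = 0.869), and both rest on that library. Without Old replicate 2 they were 0.31 (adjusted p = 0.741) and -0.12 (adjusted p = 0.893), with the sign of both turned, where the remaining Old library was assumed to vary like the other groups.

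Angpt1 encodes the ligand of the receptor TIE2, which stabilises vessels and acts on stem cells. Its start region had 33.9 and 29.8 RPM in Young, 40.7 and 32.2 RPM in Old, and 29.2 and 31.7 RPM in OldAcetate. Old replicate 1 was the highest library, Young and Old overlapped before scaling, and both OldAcetate libraries lay below both Old libraries, as in 3.46% of all regions. After scaling, on the log2 scale, the values were 4.86 and 4.84 for Young, 5.49 and 5.28 for Old, and 4.83 and 4.97 for OldAcetate. Both Old libraries were then above all other libraries. On the scaled values, Old was above Young in 16.9% of all regions and OldAcetate below Old in 17.2%. The scaled change was 0.54 (SE 0.16, interval 0.21 to 0.86, adjusted p = 0.737) for Old against Young and -0.49 (SE 0.16, interval -0.81 to -0.16, adjusted p = 0.658) for OldAcetate against Old. Without scaling the same changes were 0.18 and -0.25, and Angpt1 was the only member with a change above 0 for Old against Young on that scale, as 7.85% of all regions were. For OldAcetate against Young the scaled change was 0.05 (SE 0.16, adjusted p = 0.991). Its 2 regions in intron 1 had changes of 0.22 (SE 0.28) and 0.13 (SE 0.40) for Old against Young and -0.31 and -0.13 for OldAcetate against Old. Leaving out each library in turn, the change at the start region stayed between 0.43 and 0.64 for Old against Young and between -0.59 and -0.38 for OldAcetate against Old.

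Il7 encodes the cytokine of early lymphocytes. Its region had 24.4 and 20.0 RPM in Young, 22.2 and 16.3 RPM in Old, and 26.9 and 21.7 RPM in OldAcetate. Every pair of groups overlapped, and replicate 1 was the higher library in each. The scaled change was 0.14 (SE 0.20, adjusted p = 0.964) for Old against Young, where it was -0.21 without scaling, and 0.10 (SE 0.20, adjusted p = 0.971) for OldAcetate against Old.

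Vcam1 encodes the adhesion molecule that binds the integrin VLA-4 on blood cells. Its region had 54.3 and 56.8 RPM in Young, 54.1 and 45.3 RPM in Old, and 54.1 and 53.8 RPM in OldAcetate. Both Old libraries were below both Young libraries, as in 60.2% of all regions, though Old replicate 1 and Young replicate 1 nearly coincided. The order turned after scaling, with a change of 0.19 (SE 0.13, interval -0.08 to 0.45, adjusted p = 0.918) beside -0.16 without it. For OldAcetate against Old the change was -0.12 (SE 0.13, adjusted p = 0.933), beside 0.12 without scaling.

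Of the osteoclast factors, Csf1 encodes the growth factor of the macrophage and osteoclast lineage and had the most reads. Its region had 186.5 and 157.3 RPM in Young, 133.6 and 140.0 RPM in Old, and 169.0 and 157.2 RPM in OldAcetate. Old was below Young in both libraries, as in 60.2% of all regions, and below OldAcetate, as in 47.1%. After scaling the groups overlapped, and the change was 0.03 (SE 0.08, interval -0.14 to 0.19, adjusted p = 0.988) for Old against Young and 0.01 (SE 0.08, interval -0.15 to 0.18, adjusted p = 0.992) for OldAcetate against Old. As deposited, the change for Old against Young was -0.32 (adjusted p = 0.0548), the lowest adjusted p of a named region under any setting tried.

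Tnfsf11 encodes RANKL. Its region had 64.5 and 53.9 RPM in Young, 57.3 and 42.6 RPM in Old, and 51.1 and 52.1 RPM in OldAcetate. Old spanned the OldAcetate values and overlapped Young, whereas both OldAcetate libraries were below both Young libraries, as in 29.8% of all regions. The scaled change was 0.10 (SE 0.13, adjusted p = 0.964) for Old against Young, beside -0.25 without scaling, and -0.18 (SE 0.13, interval -0.44 to 0.09, adjusted p = 0.894) for OldAcetate against Old, beside 0.06 without scaling. Without Old replicate 1 these were -0.05 and -0.02, and without Old replicate 2 they were 0.25 and -0.33.

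Tnfrsf11b encodes osteoprotegerin. Its start region had 44.7 and 36.8 RPM in Young, 39.3 and 26.3 RPM in Old, and 37.0 and 40.9 RPM in OldAcetate. Old replicate 2 was again the lowest library, and Old replicate 1 lay within the range of the others. The scaled change was 0.02 (SE 0.16, interval -0.30 to 0.34, adjusted p = 0.998) for Old against Young, beside -0.33 without scaling, and 0.03 (SE 0.16, adjusted p = 0.991) for OldAcetate against Old, beside 0.27. Both values rested on which Old library was used. Without Old replicate 1 they were -0.21 and 0.26, and without Old replicate 2 they were 0.24 and -0.19.

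The ratio of RANKL to osteoprotegerin sets how much RANKL is free, and the ratio of H3ac density at their start regions was computed for each library. It was 0.627 and 0.638 for Young, 0.634 and 0.705 for Old, and 0.601 and 0.555 for OldAcetate. Tnfsf11 was thus below Tnfrsf11b in all 6 libraries. Both OldAcetate libraries had a lower ratio than the others, and Old overlapped Young. In OldAcetate replicate 2, where the ratio was lowest, it rested on 125 reads at Tnfsf11 and 98 reads at Tnfrsf11b. No counting interval was computed for the ratio. How often other pairs of regions separate the groups in this way was not computed either. The ratio was not tested, so its order between groups is not shown to exceed counting error. It describes H3ac and not the amount of either protein.

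The transcription factor genes had wide regions, and their replicates were close to each other except for Foxc1 in OldAcetate. Foxc1 encodes a forkhead factor that maintains the CXCL12-rich reticular cells of marrow, and its region had 86.2 and 82.1 RPM in Young, 84.1 and 79.5 RPM in Old, and 107.5 and 95.1 RPM in OldAcetate. Both OldAcetate libraries were above all other libraries, where 7.6% of all regions had OldAcetate above Young and 47.1% had it above Old. The scaled change was 0.38 (SE 0.10, interval 0.17 to 0.58, adjusted p = 0.871) for OldAcetate against Young, 0.26 without scaling and between 0.30 and 0.45 when each library was left out in turn. It was 0.31 (SE 0.10, interval 0.10 to 0.52, adjusted p = 0.790) for Old against Young, but -0.04 without scaling, so that direction rested on the scaling. For OldAcetate against Old the scaled change was 0.07 (SE 0.10, adjusted p = 0.960), beside 0.30 without scaling.

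Ebf3 encodes a factor of the early B-cell factor family that keeps marrow stromal cells from turning to bone. Its start region had 91.5 and 89.5 RPM in Young, 75.4 and 72.8 RPM in Old, and 95.8 and 94.7 RPM in OldAcetate. The replicates differed by less than the groups did. Both Old libraries were below both Young libraries, as in 60.2% of all regions. Both OldAcetate libraries were above both Old libraries, as in 47.1%, and above both Young libraries, as in 7.6%. After scaling the changes were 0.06 (SE 0.10, interval -0.15 to 0.27, adjusted p = 0.970) for Old against Young, beside -0.29 without scaling, and 0.12 (SE 0.10, interval -0.09 to 0.33, adjusted p = 0.913) for OldAcetate against Old, beside 0.36. For OldAcetate against Young the scaled change was 0.19 (SE 0.10, interval -0.03 to 0.40, adjusted p = 0.964).

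For OldAcetate against Young, the remaining start regions also stayed short of the threshold. At Cxcl12, Kitl and Il7 both OldAcetate libraries were above both Young libraries on the scaled values only, as in 17.7% of all regions. The scaled changes were 0.19 for Cxcl12, 0.18 for Kitl and 0.24 for Il7. They were 0.07 for Vcam1, 0.04 for Csf1, -0.08 for Tnfsf11 and 0.05 for Tnfrsf11b, with adjusted p from 0.984 to 0.990 for these 7 regions. Without scaling the changes of Vcam1, Csf1, Angpt1 and Tnfrsf11b turned to between -0.07 and -0.04. Leaving out each library in turn, the scaled change for Old against Young stayed above 0 at Cxcl12, Angpt1, Vcam1 and Foxc1, and changed sign under at least 1 omission at the other 6 start regions. That direction still rested on the scaling at Cxcl12, Vcam1 and Foxc1, where the unscaled changes were -0.19, -0.16 and -0.04. At Angpt1 the unscaled change was 0.18.

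**Figure D4:**
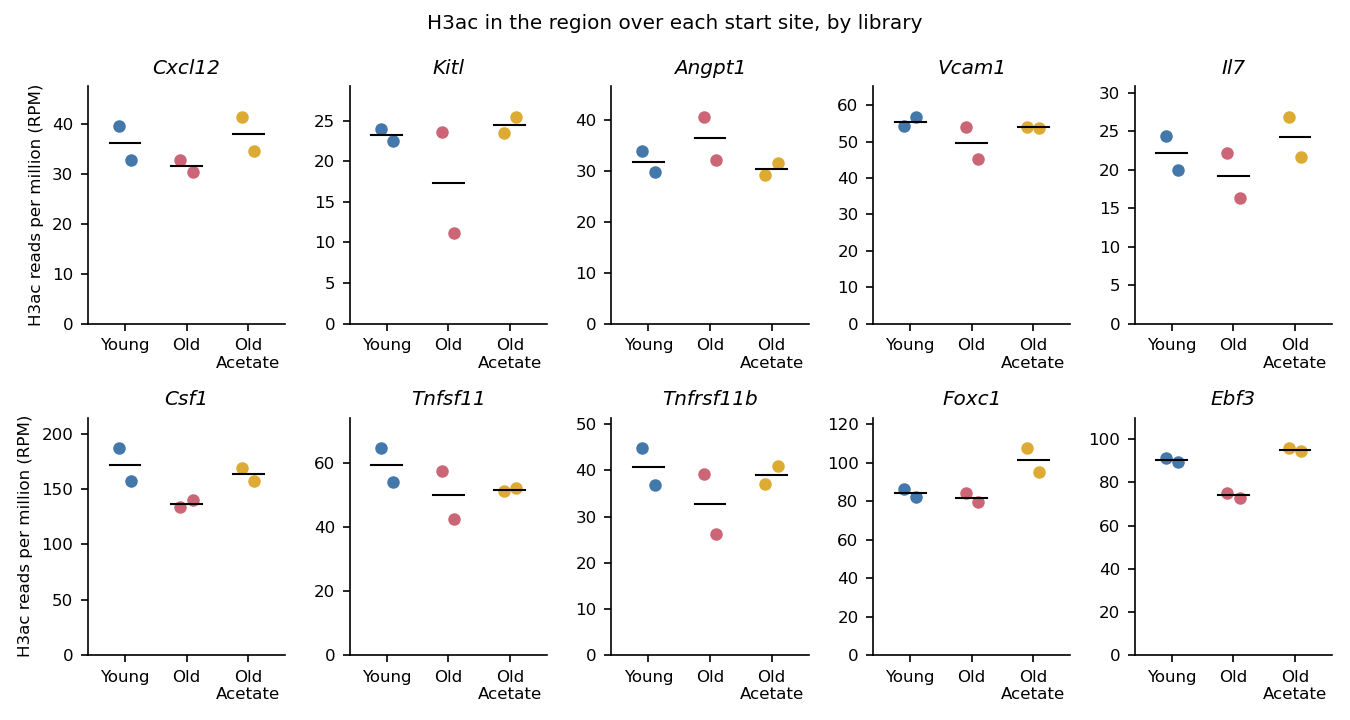
H3ac in the region over each of the 10 start sites, as reads normalised to library size (RPM) in each library. Points are libraries, replicate 1 left of replicate 2, and bars are group means of 2. Kitl shows 1 low Old library at 11.1 RPM, and Foxc1 and Ebf3 have both OldAcetate libraries above Young, at 95.1 to 107.5 and 94.7 to 95.8 RPM.

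Across the 18 regions before scaling, both Old libraries were below both Young libraries in 5 (Vcam1, Csf1, the Ebf3 start region and 2 further Kitl regions; 60.2% of all regions) and above in 0 (1.29%). Both OldAcetate libraries were above both Old libraries in 5 (47.1%) and below in 1, the Angpt1 start region (3.46%). Against Young, OldAcetate was above in 2, Foxc1 and the Ebf3 start region (7.6%), and below in 6 (29.8%). After scaling, Old was above Young in 4, the start regions of Cxcl12, Angpt1, Vcam1 and Foxc1 (16.9%), and below in 0 (17.1%). OldAcetate was then above Old in 2 (16.7%) and below in 4 (17.2%), and above Young in 5 (17.7%) and below in 4 (18.1%). Old replicate 2 was the lowest of the 6 libraries in 12 of 18 regions, beside 48.4% of all regions, and its share of reads in regions, 45.9%, was the lowest too.

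The 8 regions away from a start held fewer reads, 9 to 170 in a library, and all of their intervals included 0. Their scaled changes ran from -0.41 (Ebf3 intron 8) to 0.22 for Old against Young, from -0.31 (Angpt1 intron 1) to 0.28 (Cxcl12 last exon) for OldAcetate against Old, and from -0.27 to 0.22 for OldAcetate against Young, with adjusted p of 0.908 or more. Each region name ends in letters, Y, O or AC, that the labels leave undefined and that were taken to stand for the 3 groups. All 3 letters were given to 14 of the 18, beside 80.6% of all regions, and to every start region. The code AC+Y, without O, was given to 3 (12.1% of all regions), the Cxcl12 last exon, Kitl intron 1 and Ebf3 intron 8 regions, and O+Y to 1 (2.53%), an Angpt1 intron 1 region. The letters did not mark an absence of reads, since the 3 regions without O held 9 to 28 reads in each Old library.

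Together the member regions took 0.0800% and 0.0713% of Young reads, 0.0687% and 0.0599% of Old reads, and 0.0759% and 0.0729% of OldAcetate reads. The 95% Wilson interval of Old replicate 2 ran from 0.0569% to 0.0630% and covers counting error only. Group means were 0.0756% ± 0.0061 (SD, n = 2) in Young, 0.0643% ± 0.0062 in Old and 0.0744% ± 0.0022 in OldAcetate, with Old lowest. The order changed with the denominator. Of the reads inside regions the members took 0.123% and 0.123% for Young, 0.138% and 0.130% for Old, and 0.133% and 0.130% for OldAcetate, with Young lowest.

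Other genes of the same pathways were read through the region over their start site. Of 20 further stromal niche factors and regulators, 16 had such a region, and 0 were called higher or lower in any comparison. Among them, Lepr, the leptin receptor gene used to mark niche stroma, had 2.09 RPM per kb, and Ebf1, a relative of Ebf3, had 2.49. Of 10 receptors for the member ligands, 3 had a start region, Cxcr4 and Ackr3, which bind CXCL12, and Itgb1, a subunit of VLA-4. Cxcr4 stood at 3.03 RPM per kb. Kit, Tek, Itga4, Il7r, Il2rg, Csf1r and Tnfrsf11a, the receptors or subunits for the products of Kitl, Angpt1, Vcam1, Il7, Csf1 and Tnfsf11, had none. Every one of those ligand genes had one, but members and lists were chosen with earlier results of these data known. The share of all genes with a start region was not computed, so these counts stand without a background. The table lists called regions only, so a gene without one has no value here. Of 10 genes upstream of RANKL and osteoprotegerin or downstream of RANKL, 8 had a start region and 0 were called. As deposited, without scaling, 1 of 16 niche factors, 0 of 3 receptors and 3 of 8 of these regulators were called for Old against Young, beside 9.52% of all regions. The stromal markers moved with them on that scale, with 4 of 10 called (Prrx1 is in both this list and that of the niche factors), and their part in these counts was not tested. The listed regions were not matched to all regions in length or reads, so these counts do not show an excess over that share.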

How the data were processed

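H3ac CUT&RUN was analysed in 6 libraries, 2 each of Young, Old and OldAcetate MSCs, grouped and numbered by the labels. The deposited table gives RPM per region and library. Although its name says RPKM, all values of a library (100%, tolerance 0.01) were whole-number multiples of a common unit at every region length. The authors had therefore not divided by length, and that unit, the worth of 1 read, gave back whole reads and library totals. The submitters' processing notes name Bowtie2, Picard and mm10. The peak caller, and any use of the added yeast DNA for scaling, are not given in the sources used here, and PCR duplicates beyond those notes are unknown. The study's text describes other experiments.

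Member regions overlapped a gene body of GENCODE vM21 extended by 5 kb. The members and all lists were chosen with earlier results of these data known, and 1 marker gene is not reported here. The test was limma (3.58.1, run in R 4.3.3) on log2(RPM + 0.5). Libraries were scaled first, by removing the median of each library's deviations from the average of its regions over libraries. The 6 libraries shared one model of group means, with trended and robust eBayes, and Benjamini-Hochberg adjustment covered all regions (threshold 0.05). Changes of low regions are understated on this scale. No region was filtered out. edgeR 4.0.16 quasi-likelihood tests on the recovered reads were an alternative, as were other pseudocounts (0.1 and 1), unscaled values, quantile normalization, dropping the lowest 25% of regions, a replicate block, fits restricted to the 4 compared libraries, plain eBayes, a threshold of 0.01, other gene windows and leaving out libraries. The limma fit was first run on simulated counts with little spread beyond counting error. That run does not show how the fit behaves at the spread of these libraries. The deepest library had 3039481 reads and the shallowest 2163351, and the Poisson and Wilson intervals cover counting error only. The limma intervals rest on the spread between libraries, drawn by eBayes toward a trend over all regions. They therefore do not measure the replicate spread of a single region alone. Regions given with values in every library were those over a start site, the densest of each gene and the 2 of lowest p in each comparison, and these came to the 10 start regions. Promoters came from RefSeq (GRCm38.p6), and matplotlib 3.10.9 (Python 3.11.15) drew the figures.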

Additional observations from a re-analysis of the deposited data

How the results depend on the processing

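No member region was called in any comparison under any alternative run, with limma or edgeR, and leaving out each library in turn gave 0 to 0 calls. Where 1 library remained in a group, it was assumed to vary like the others. The median member change depended on scaling. Without it, the median was -0.27 for Old against Young (0.08 scaled) and 0.23 for OldAcetate against Old (-0.01 scaled). Leaving out libraries, the medians ran from 0.07 to 0.20 for Old against Young, from -0.19 (without Old replicate 2) to 0.047 for OldAcetate against Old, and from 0.02 to 0.08 for OldAcetate against Young. The signs of 8, 2 and 4 of the 10 start regions differed without scaling in the 3 comparisons, of 0, 1 and 0 under quantile normalization, and of 0 under pseudocounts of 0.1 and 1, edgeR with RLE factors and the replicate block. Leaving out libraries turned signs too, of 3, 1 and 0 without Old replicate 1, of 2, 3 and 0 without Old replicate 2, of 0, 4 and 0 without OldAcetate replicate 1, of 0, 1 and 2 without OldAcetate replicate 2, of 1, 0 and 1 without Young replicate 1 and of 2, 0 and 1 without Young replicate 2. The difference in the share of reads in member regions was -0.0114 percentage points for Old against Young, 0.0101 for OldAcetate against Old and -0.0012 for OldAcetate against Young. With reads inside all regions as the denominator it became 0.0107, -0.0030 and 0.0077 points, since fewer Old reads lay in regions. Leaving out libraries, it ran from -0.0158 to -0.0069, from 0.0057 to 0.0145 and from -0.0055 to 0.0031 points. Over all regions, the calls for Old against Young were 2 in the test as reported, 0 without either Old library or without eBayes trend and robust, 9 without Young replicate 2, 2327 without scaling, and 5 by edgeR with RLE factors against 2524 without factors.

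Replicate differences of libraries with the same number were hardly correlated. With a median of 31 to 56 reads in a region, counting error weakens such a correlation, so pairing cannot be decided from it. The correlation across regions of the replicate differences was 0.01 for Young with Old, -0.03 for Young with OldAcetate and -0.04 for Old with OldAcetate, and the fit with the replicate number as a block called 0 member regions in each comparison and 2, 0 and 0 of all regions. Depth limited the regions away from start sites most, with as few as 9 reads in a library and 95% half-widths of up to 0.80 on the log2 scale.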
